A study of Mus musculus with 192 samples.

Results

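Angpt1, Angpt2, Tie1 and Tie2 form the angiopoietin-Tie system, and their 4 TaqMan assays were followed here among 96 assays of 95 genes. The assays were found by gene name in the deposited Ct table: Mm00456503_m1 for Angpt1, Mm00545822_m1 for Angpt2, Mm00441786_m1 for Tie1 and Mm01256898_m1 for Tie2, whose RefSeq symbol is Tek. Ct is the PCR cycle at which the signal of a reaction crosses its limit, so a lower Ct is a higher level, 1 cycle is nominally a doubling, and a value of 40 marks a reaction that was not detected. The cells were donor-derived: GFP-positive donor mice shared a circulation with recipient mice by parabiosis, and lineage-negative (lin-), GFP+ cells were sorted from dorsal excisional wounds of the recipients. The recipients were WT or EKO, the latter lacking CXCL12, a chemokine that recruits CXCR4-bearing cells, in endothelium. The genotype is therefore that of the recipient and not of the cells measured. The sources used here did not give the lineage antigens of the sort, the driver of the endothelial deletion, the day of harvest or the number of animals.

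The 192 cells were in sets A and B, each with 48 WT cells numbered 1 to 48 and 48 EKO cells numbered 49 to 96, so genotype and position within a set cannot be told apart. Of these, 170 cells detected at least 10 assays and were kept, 93 WT and 77 EKO, with 48 and 45 WT cells and 39 and 38 EKO cells in sets A and B. The 22 cells left out were 19 EKO and 3 WT cells. The median kept WT cell detected 21 assays and the median EKO cell 34. No animals were named, each genotype therefore counted as 1 sample, and no test between genotypes was made. Shares carry 95% exact Clopper-Pearson intervals and differences between shares Newcombe intervals, and both cover counting error only. Beside a count of 0 the largest share that 3 counts would give is printed, a separate limit from those intervals. A difference was called when it reached 10 percentage points and sets A and B agreed in sign, which is a rule of size and not a test.

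The angiopoietins are secreted ligands of the receptor tyrosine kinase Tie2. Angpt1, made largely by mesenchymal and perivascular cells, activates Tie2 on endothelium and stabilises vessels, whereas Angpt2, released by activated endothelium, opposes or mimics Angpt1 depending on context. Tie1 binds neither ligand well and acts with Tie2 as a co-receptor, and in skin both receptors are known chiefly from blood and lymphatic endothelium. Tie2 also occurs on some haematopoietic cells, including a class of perivascular monocytes.

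The promoters of both receptors are shown because Tie1 was detected only in cells that also detected Tie2. Capitals mark GGAA or its complement TTCC, the core letters bound by ETS factors, which are well known regulators of endothelial genes. The 250 bases before the annotated start of Tie1 lie at chr4:118489850-118490099 on the minus strand of GRCm38.p6, and the 47 bases before the annotated start of Tek, all that the RefSeq promoter window holds upstream of the gene, lie at chr4:94739039-94739085 on the plus strand.
Tie1: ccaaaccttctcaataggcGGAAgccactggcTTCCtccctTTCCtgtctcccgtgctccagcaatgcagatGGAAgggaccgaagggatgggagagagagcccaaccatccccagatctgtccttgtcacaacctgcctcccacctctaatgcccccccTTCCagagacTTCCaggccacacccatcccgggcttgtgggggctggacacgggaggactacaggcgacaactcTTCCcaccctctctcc
Tie2: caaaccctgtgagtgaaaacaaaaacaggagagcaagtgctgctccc
The Tie1 stretch held 7 matches and the shorter Tie2 stretch 0. Among 32851 RefSeq promoters of 250 bases, 93.4% held at least 1 match, the median was 3, and 3.82% held 7 or more. The 250-base Tek window, which runs past the annotated start and is not shown, held 2 matches, and 76.8% of promoters held at least as many. Such a match is a description of the letters and not a binding site.

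Of the kept cells, 29 detected Angpt1, 23 Tie2, 11 Angpt2 and 8 Tie1, and 126 detected none of the 4. The least common receptor and the antagonist ligand went together: all 8 Tie1 cells detected Tie2 and Angpt2, whereas 15 of 23 Tie2 cells and 3 of 11 Angpt2 cells lacked Tie1. Angpt1 was the only member detected in 18 cells and shared 9 cells with Tie2 alone, while 2 cells detected all 4. Tie2 was the only member in 6 cells and Angpt2 in 3. These combinations followed 2 of the cell classes below, the Cdh5-detecting and the collagen-high cells.

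The classes were set by single genes: collagen-high cells with Col1a1, the fibrillar collagen of fibroblasts, at a Ct below 16; cells detecting Ptprc, the pan-leukocyte CD45; and cells detecting Cdh5, the adherens-junction cadherin of endothelium. They held 46, 102 and 13 kept cells and overlapped, with 31 collagen-high cells detecting Ptprc, 8 Cdh5 cells detecting Ptprc and 2 cells both collagen-high and Cdh5-detecting. Collagen-high cells gave 36 to 61 assays each (median 52), against a median of 26 in the 65 Ptprc cells that were neither collagen-high nor Cdh5-detecting. Because high-yield cells detect more assays, though not more of every gene, the share of all assays that met the size rule in the same comparison is given with the counts.

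**Figure D1:**
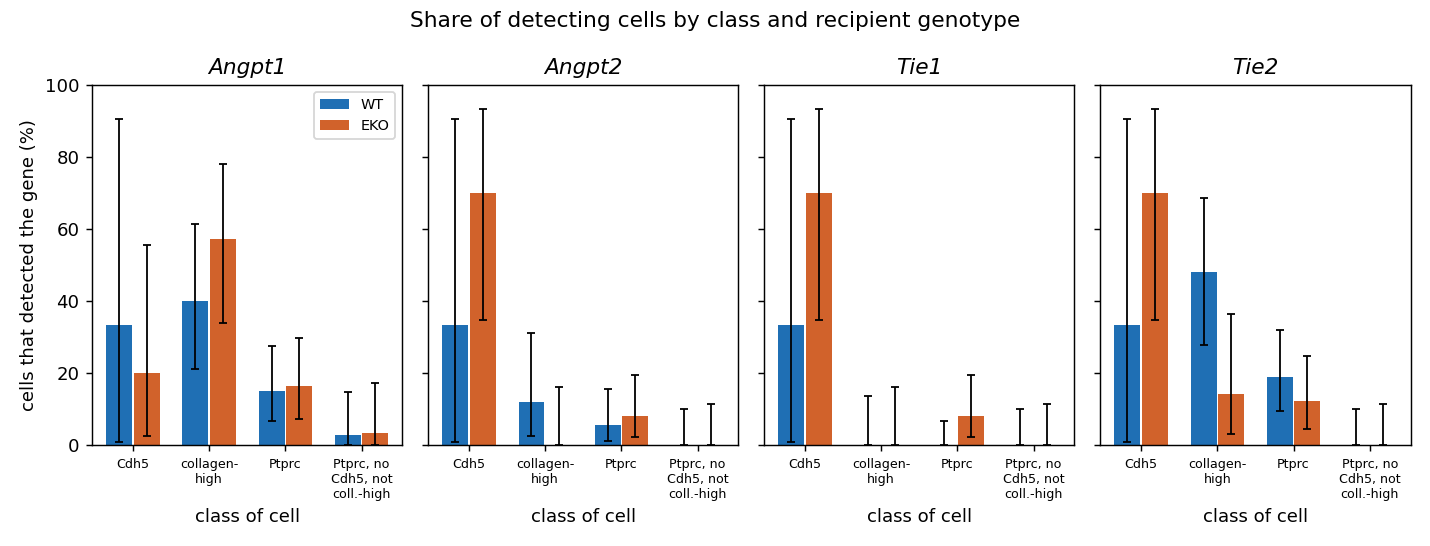
Share of kept cells that detected each gene (y axis, percent) by cell class, for WT (blue) and EKO (orange) recipients; bars are shares and lines are 95% Clopper-Pearson intervals, for counting error only. Angpt1 and Tie2 reached 40% and 48.0% of WT collagen-high cells, Tie1 was 0 there, and the Ptprc cells that were neither collagen-high nor Cdh5-detecting held no Angpt2, Tie1 or Tie2.

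Angpt1, the Tie2 agonist, was mainly a ligand of the collagen-high cells. It was detected in 22 of 46 of them, 47.8% (32.9 to 63.1), against 7 of the 124 other kept cells, 5.65%. The difference of 42.2 points met the rule, as did 60% of all assays in that direction, and among cells with at least 24 assays it was 41.7 points, where 42.1% of assays met the rule. The median assay differed by 24.7 points across kept cells and by 6.66 at the stricter yield, and Angpt1 ranked 34 and 21 of 95 from the highest, so many assays exceeded it.

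Outside the collagen-high class, Angpt1 was found in 2 Cdh5 cells, 2 of the 65 remaining Ptprc cells (3.08%) and 3 cells with none of the class genes. Ptprc-detecting cells as a whole held it in 16 of 102 cells and the others in 13 of 68, a difference of -3.43 points. For Angpt2, Tie1 and Tie2 the differences were 0.98, -1.96 and 5.39 points. None of the 4 members met the size rule for Ptprc in either direction (42.1% of assays were higher). Among cells with at least 24 assays the Ptprc-detecting ones held Angpt1 in 14 of 73 cells against 11 of 22, 30.8 points lower in a comparison where 28.4% of assays were lower by the rule. Tie1 was also lower there, by 12.7 points. The genes detected most like Angpt1 over the 170 cells were Wnt5a, a non-canonical Wnt ligand (phi 0.52), the Cxcl12 assay Mm00457276_m1 (0.50) and Cxcr7, a scavenging receptor of CXCL12 (0.49). These values share the yield of each cell, and over the 95 cells with at least 24 assays they were 0.52, 0.49 and 0.47 for the same genes.

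The Angpt1 Ct fell in 2 separated ranges. Over all 192 cells, 30 detected it, 14 at Ct 5.51 to 10.4 and 16 at 14.4 to 20.02, with none between. A limit of Ct 12, chosen after these values were seen, separates them and they are called early and late here. All 5 cells with fewer than 24 assays that detected Angpt1 were early, at 5.51 to 9.85, including EKO cell B67, which was left out with 9 assays and a Ct of 5.90. The 7 kept Angpt1 cells outside the collagen-high class were early in 5 and late in 2, the late ones being EKO A72 at 19.2 and WT B44 at 16.3. Their median Ct was 6.1 in the 4 EKO cells and 9.855 in the 3 WT cells, earlier in EKO. Over all 192 cells the 5 early EKO values, 5.51 to 6.90, lay below the 9 early WT values, 7.51 to 10.4.

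Within the collagen-high cells the early and late values divided unevenly by genotype. The WT cells of set A had Angpt1 Ct 7.51, 7.76, 8.49, 10.1, 10.4, 15.04 and 18.4, and those of set B 9.74, 9.88 and 16.2. The EKO cells of set A had 6.90, 15.2, 15.4, 15.7 and 20.02, and those of set B 14.4, 15.7, 15.8, 15.96, 16.1, 17.9 and 17.99. Early values were thus 7 of 10 in WT and 1 of 12 in EKO, and the 2 genotypes overlapped through that 1 EKO cell and 3 late WT cells. The median was 15.8 (SD 3.14 over cells, n = 12) in EKO and 9.97 (SD 3.80, n = 10) in WT, 5.80 cycles later in EKO. Set A gave a delay of 5.34 cycles and set B of 6.08. On the Ct minus the median Ct of the same cell the difference was 6.62 cycles. Angpt1 was the latest, on both scales, of the 57 assays detected by 3 or more cells of each genotype in each set. Of these, 12.3% were later by at least 1 cycle with the same sign in both sets on the raw scale and 12.3% on the cell-centred scale. This comparison of levels was added after the data had been seen and rests on cells of 1 sample per genotype. The compared cells gave a median of 53 assays in WT (50 to 61) and 57.5 in EKO (42 to 61), and the part of yield in the difference was not tested.

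**Figure D2:**
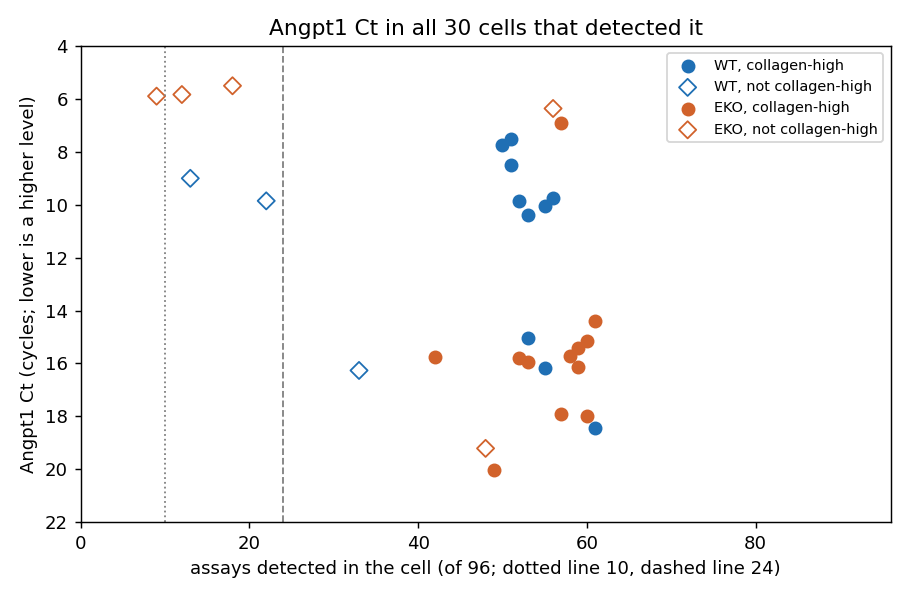
Angpt1 Ct (y axis, inverted, cycles) against the number of assays detected in the cell (x axis) for all 30 cells that detected Angpt1, filled when collagen-high and open otherwise, blue for WT and orange for EKO. The points lie at 5.51 to 10.4 or at 14.4 to 20.02, 7 of 10 WT collagen-high cells lie in the lower Ct range and 11 of 12 EKO ones in the higher.

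By detection, Angpt1 was found in 12 of 21 EKO and 10 of 25 WT collagen-high cells, 57.1% against 40%. The EKO share was 17.1 points higher (-11.1 to 41.9), set A giving 27.7 points and set B 16.7, and 12.6% of assays met the rule in that direction. Over all kept cells the shares were 16 of 77 EKO and 13 of 93 WT cells, a difference of 6.80 points (-4.56 to 18.6) close to the 5.70-point median of all assays. Late values were in 11 of 21 EKO and 3 of 25 WT collagen-high cells, and early ones in 1 of 21 and 7 of 25. The higher EKO share thus came from late detections, early ones being fewer, and the interval of the difference in detection included 0. The 5 Angpt1 cells with fewer than 24 assays had early values only. Whether an early Ct measures the Angpt1 level was not tested, which limits both this difference and that in median Ct.

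Angpt2, the context-dependent antagonist, was detected in 8 of 13 Cdh5 cells and 3 of the other 157 kept cells. In the Cdh5 cells it appeared at Ct 14.98, 15.3, 15.9, 16.6, 17.8, 20.2 and 20.9 in EKO and 19.5 in WT. The 3 others were WT collagen-high cells at 20.99, 22.4 and 23.3, later than every Cdh5 cell. All 3 detected Ptprc and none detected Angpt1, Tie1 or Tie2. Antagonist and agonist were thus never found in the same collagen-high cell, but the interval of 0 of 3 for Angpt1 reached 70.8%. Both ligands were detected in 2 Cdh5 cells, EKO A64 and A72. The 113 kept cells that were neither collagen-high nor Cdh5-detecting held 0 Angpt2 cells, which leaves room for a share of up to 2.65%. Its closest companions were Nos3, the endothelial nitric oxide synthase (phi 0.75), Stab1, a scavenger receptor (0.71), and Cdh5 (0.64).

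**Figure D3:**
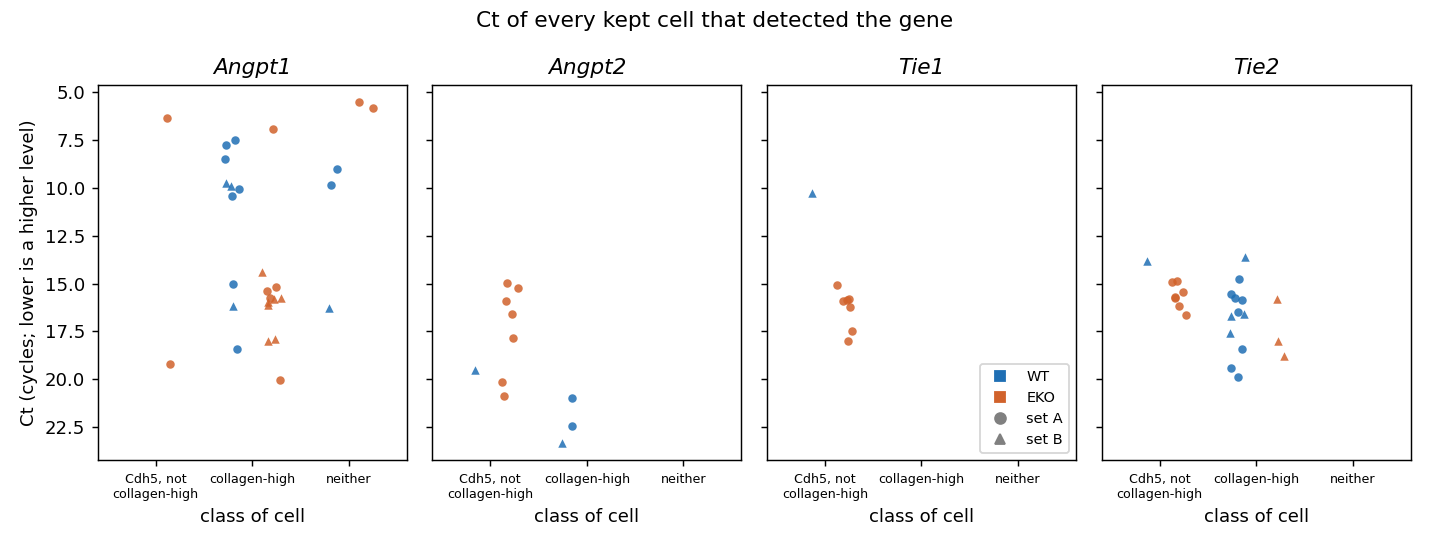
Ct (y axis, inverted, cycles) of every kept cell that detected each gene, by class (Cdh5-detecting and not collagen-high, collagen-high, neither), with color for the recipient genotype and shape for the set. Tie1 has points only in the Cdh5 class, where the WT cell lies at 10.3 and the EKO cells at 15.1 to 17.98, and Angpt2 in collagen-high cells lies at 20.99 to 23.3.

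Tie1, the co-receptor, was confined in these cells to Cdh5 cells: 8 of 13 detected it and 0 of 157 others. The 7 EKO cells, all of set A, had Ct 15.1, 15.8, 15.9, 15.9, 16.2, 17.5 and 17.98. The WT cell, B17 of set B, had 10.3, earlier than every EKO cell by more than 4 cycles, and also had the earliest Tie2 of the 8 at 13.8, with 47 assays, the fewest of the 8. None of the 8 was collagen-high. The 46 collagen-high cells gave 0 Tie1 detections, which allows a share of up to 6.52%.

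The 8 Tie1 cells had the most complete endothelial profile of the panel. All 8 detected Pecam1, Flt1, Nos3, Eng, Stab1 and Cd34, 7 detected the VEGF receptor gene Kdr, and none detected Pdgfra or Pdgfrb, receptors of mesenchymal and mural cells. Mcam, an adhesion molecule of both endothelial and mural cells, was in 7 of the 8 and Acta2, smooth-muscle actin, in 2, so they detected 0 to 2 of the 4 mural markers measured (median 1). Of 6 endothelial markers measured they detected 5 to 6 each, of 6 mesenchymal markers 1 to 4, and of 5 leukocyte markers 0 to 5 (median 1.5). Of 5 haematopoietic progenitor markers, Cd34 among them, they detected 3 to 5 (median 4). The median of that list was 3 in collagen-high cells with Tie2 and 1 in Ptprc cells neither collagen-high nor Cdh5-detecting. Stab1 was not on the endothelial list. The Cdh5 Ct of the 8 Tie1 cells was 12.9 to 16.1. Ptprc was detected in 4 of them, the myeloid integrin Itgam in 3 and Emr1, the macrophage antigen F4/80, in 2. Cell EKO A89 detected Ptprc at 11.7, Itgam at 13.9 and Emr1 at 15.9 and gave 70 assays, the highest yield of any cell. The part of more than 1 cell in a reaction chamber was not tested.

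The other 5 Cdh5 cells lacked the receptor pair. They had Cdh5 at Ct 20.4 to 25.1, no Tie1, Tie2 or Angpt2, 1 to 3 of the 6 endothelial markers, and Ptprc in 4 of 5. The 2 that were also collagen-high were WT A18 and B15, the latter with Angpt1 at 9.74. The Cdh5 class therefore held cells of unlike content, and 5 or more endothelial markers were seen in the 8 cells with early Cdh5 only.

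The Cdh5 class exceeded the other kept cells by 61.5 points for Tie1, 59.6 for Angpt2 and 51.98 for Tie2, and 40% of assays were higher by the rule. At 24 or more assays these became 66.7, 63.1 and 48.6 points and 27.4% of assays were higher. In set B, with 3 Cdh5 cells, they were 33.3, 32.1 and 24.6 points and rested on the 1 cell B17. Angpt1 was in 3 of 13 Cdh5 and 26 of 157 other cells, 6.52 points higher (-9.78 to 34.2), and did not meet the rule. When the class was instead set by at least 2 of Cdh5, Pecam1, Kdr and Flt1, it held 20 cells, 10 of them collagen-high and 10 Cdh5-detecting, and Angpt1 did meet the rule, in 8 of 20 against 21 of 150 cells (26 points, 6.77 to 47.8). The difference was then 38 points for Angpt2, 40 for Tie1 and 58.3 for Tie2. Collagen-high cells were 6 of the 8 with Angpt1, 5 of the 13 with Tie2 and 0 of those with Angpt2 or Tie1. The share of all assays that met the rule was not computed for this class.

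**Figure D4:**
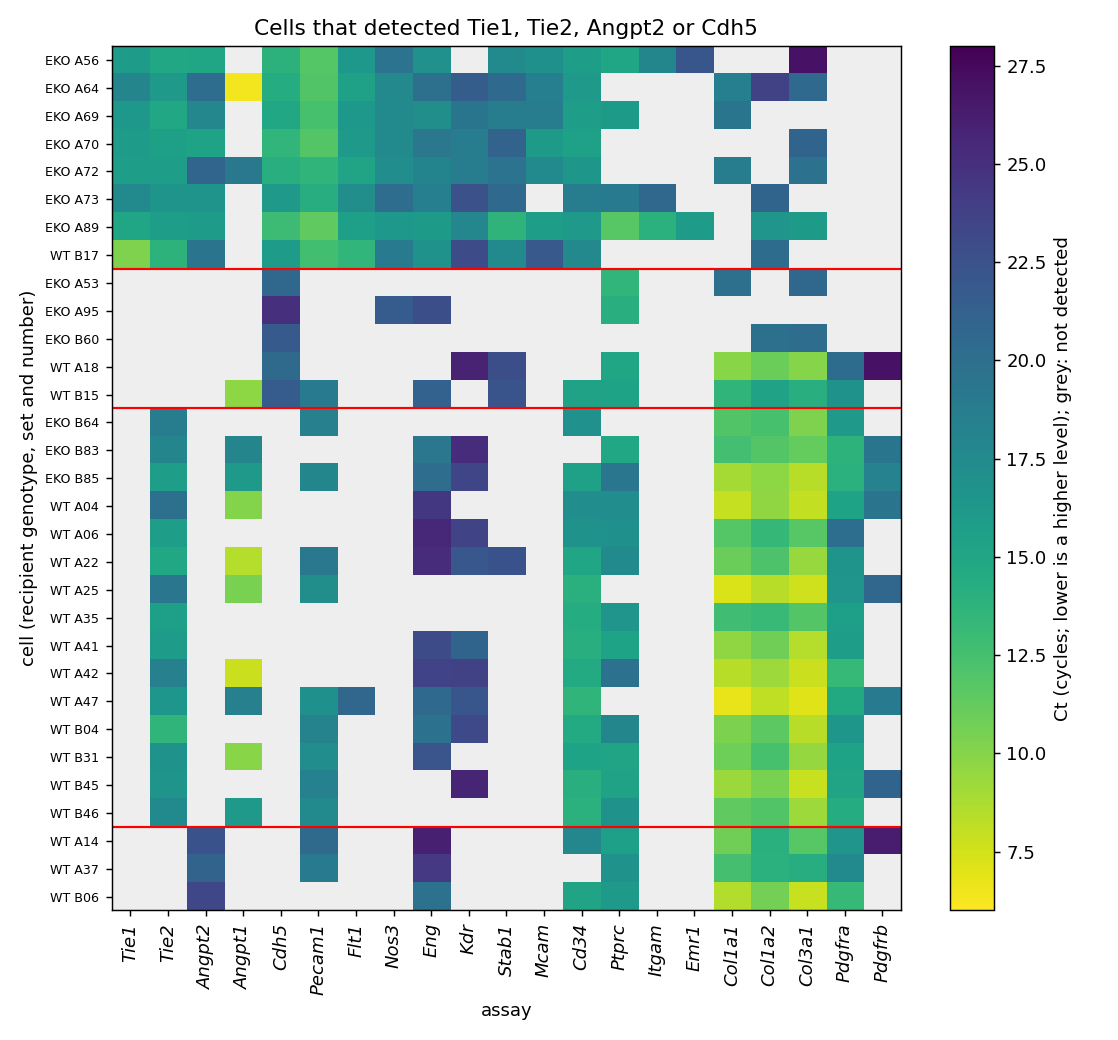
Ct (color, cycles, lower is a higher level; grey is not detected) of 21 assays (columns) in each kept cell that detected Tie1, Tie2, Angpt2 or Cdh5 (rows, named by genotype, set and number), with red lines between the Tie1 cells, the other Cdh5 cells, the collagen-high cells with Tie2 and those with Angpt2. The top 8 rows carry Cdh5, Pecam1, Flt1 and Nos3 and lack Pdgfra, and the 15 Tie2 rows carry Col1a1 and Pdgfra and lack Cdh5 and Nos3.

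Tie2, the signalling receptor, was held by the 8 Tie1 cells and by 15 other cells, all of them collagen-high. In the Tie1 cells its Ct was 13.8 to 16.6 and in the collagen-high cells 13.6 to 19.9, ranges that overlapped. The 15 collagen-high cells detected Pdgfra and the stromal surface protein Thy1 in 15 of 15 and Ptprc in 12 of 15. None of them detected Cdh5, Tie1, Nos3, Mcam, Itgam or Emr1. They were not without other genes of either list, however, since Eng was in 10 of 15, Cd34 in 14 and Cd48, a leukocyte surface protein, in 10. Per cell they detected 0 to 4 of 6 endothelial markers (median 2) and 0 to 3 of 5 leukocyte markers (median 2).

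Collagen-high cells with and without Tie2 were compared by the same rule, which 16% of 94 assays met as higher and 12.8% as lower, with a median of 0. Kdr was in 9 of the 15 cells with Tie2 and 4 of the 31 without, 47.1 points higher. Within WT alone the counts were 7 of 12 and 2 of 13. WT cells made up 12 of the 15 cells with Tie2 and 13 of the 31 without. Apart from Kdr, the part of recipient genotype in the differences listed here was not tested. Pecam1, a junction protein of endothelium and leukocytes, was in 9 of 15 and 11 of 31. Of 13 vascular receptors, 5 were higher beside Tie2 (Kdr, Fgfr2, Igf1r, Jag1 and Notch1) and 1 lower, Eng, a co-receptor of TGF-beta. Of 12 ligands, 3 were higher (Fgf1, Fgf2 and Pdgfb) and 3 lower (Cxcl12, Igf1 and Pdgfa), the Cxcl12 assay Mm00457276_m1 being in 13.3% of the cells with Tie2 and 61.3% of those without. Of 8 signalling genes, Itgb3 was higher and Vcam1 and the assay named Fox03 were lower. Of 5 leukocyte markers, Ptprc was higher, in 80% against 61.3%, as was Cd48, in 66.7% against 38.7%, and the part of leukocyte transcripts in these cells was not tested.

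The genes detected most like Tie2 over all 170 cells were Kdr (phi 0.65), Cxcr7 (0.54) and Cd34, a progenitor and endothelial sialomucin (0.54). Over the 95 cells with at least 24 assays they were Kdr (0.60), Stab1 (0.49) and Cd34 (0.45). Of the 15 cells, 9 also detected Angpt1, 7 WT and 2 EKO, so agonist and receptor transcripts occurred in the same collagen-high cell in 9 of 46. Angpt1 was in 60% of the collagen-high cells with Tie2 and 41.9% of those without, 18.1 points higher (-11.7 to 43.5), and met the rule.

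Collagen-high cells exceeded the other kept cells in Tie2 by 26.2 points, 15 of 46 against 8 of 124, and at 24 or more assays by 16.3 points (set A 7.86, set B 26.1). That was near the median assay of the first comparison, 24.7 points with 60% of assays higher by the rule, and Tie2 ranked 44 of 95. At the stricter yield the median was 6.66 points, 42.1% of assays were higher and Tie2 ranked 37. Tie1 went the other way at that yield, lower by 16.3 points where 15.8% of assays were lower. Among the 65 Ptprc cells that were neither collagen-high nor Cdh5-detecting, 0 detected Tie2, which allows a share of up to 4.62%. Of the 20 cells with Itgam or Emr1 outside both other classes, 0 detected Tie2, which allows up to 15%, so Tie2 was not detectable beside Itgam or Emr1 at this depth except in 3 of the Tie1 cells.

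By genotype over all kept cells, none of the 4 genes met the size rule, whereas 20.8% of assays were higher in EKO. Tie1 was in 7 of 77 EKO and 1 of 93 WT cells, a difference of 8.02 points (1.38 to 16.6), with set A at 17.95 points and set B at -2.22. Angpt2 was in 7 and 4 cells, 4.79 points higher in EKO, set A having 13.8 points and set B -4.44. Tie2 was in 10 and 13 cells, a difference of -0.99 points. For Tie1 and Angpt2 the sets thus pointed in opposite directions, since 7 of the 8 Tie1 cells were EKO cells of set A and the other was a WT cell of set B.

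The genotypes differed more in Tie2 within the collagen-high cells. Among collagen-high cells, WT cells had Tie2 at Ct 14.8, 15.6, 15.7, 15.9, 16.5, 18.4, 19.4 and 19.9 in 8 of 16 cells of set A and at 13.6, 16.6, 16.7 and 17.6 in 4 of 9 cells of set B. EKO cells had it in 0 of 7 cells of set A and, at 15.8, 17.98 and 18.8, in 3 of 14 cells of set B. The share was 48.0% (27.8 to 68.7) of WT and 14.3% (3.05 to 36.3) of EKO collagen-high cells, 33.7 points lower in EKO (-54.4 to -6.57). Set A alone was 50 points lower and set B 23.02. Of 95 assays, 8.42% were lower by the rule and Tie2 was the lowest. The 3 EKO values lay within the WT range, so the genotypes differed in how many cells detected Tie2 and overlapped in Ct.

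With Col1a1 limited to a Ct below 14 the Tie2 difference was -33.0 points and below 12 it was -46.5. With at least 45 assays it was -36.4, and without the Cdh5-detecting cells -37.9. The last setting drops WT cells A18 and B15, which lacked Tie2, and so leaves 23 WT cells. Angpt2 was in 0 of 21 EKO and 3 of 25 WT collagen-high cells, 12 points lower (-29.96 to 5.34), by 12.5 and 11.1 points in the sets. Ptprc was in 13 of 21 EKO and 18 of 25 WT collagen-high cells, and the part of Ptprc-detecting cells in the Tie2 difference was not tested. Over all cells with at least 24 assays, Tie2 was in 10 of 53 EKO and 13 of 42 WT cells, 12.1 points lower in EKO, a comparison in which 11.5% of assays were lower.

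Outside the collagen-high class, Tie2, Tie1 and Angpt2 were each in the same 7 of 56 EKO cells and 1 of 68 WT cells, 11.03 points higher in EKO (2.04 to 22.2). Set A had a difference of 21.9 points and set B of -2.78, so the rule was not met, while 34.7% of assays met it in that direction. Every Cdh5 cell with 5 or more endothelial markers detected Tie1, Tie2 and Angpt2, and the Cdh5 cells without Tie1 had 1 to 3 such markers. Cells of this kind are known here only by their detected transcripts. Fewer of them among those sorted and fewer cells with a detectable transcript therefore cannot be told apart here.

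Other genes of the pathway were taken from lists. Of 8 measured genes of angiopoietin-Tie signalling, 5 were higher in EKO over kept cells and 0 lower, where 20.8% of all assays were higher and 0% lower, with a list median of 11.3 points against 5.70 for all assays. These were Nos3, the adhesion molecules Icam1 and Vcam1, the integrin gene Itgb3 and Pik3r1, the regulatory subunit of PI3-kinase. Nos3 was in only 10 kept cells, 8 of them the Tie1 cells, so its call largely repeats the Tie1 cells. The EKO and WT shares of Icam1 were 59.7% and 36.6%, and those of Pik3r1 were 66.2% and 40.9%. At 24 or more assays, where 4.17% of assays were higher and 11.5% lower, 1 of the 8 was higher, Icam1, and 1 lower, the integrin gene Itga5. Within collagen-high cells, where 12.6% of assays were higher and 8.42% lower, 2 of the 8 were higher, Icam1 at 95.2% against 64% and Vcam1 at 95.2% against 72%, and the list median was 0.76 points against 0 for all assays.

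Of 12 other angiogenic ligands, 0 met the rule in either direction over kept cells, where 20.8% of all assays were higher. At 24 or more assays 1 was lower, Igf1, where 11.5% of all assays were lower. Within collagen-high cells 2 were higher in EKO, the Cxcl12 assay Mm00457276_m1 at 61.9% against 32% and Fgf2 at 66.7% against 52%, and 1 was lower, Pdgfb, a ligand for mural cells, at 4.76% against 20%. The counts within collagen-high cells were near the shares of all assays there, 12.6% higher and 8.42% lower. Of 13 other vascular receptors, 4 were higher over kept cells, Cxcr4, Igf1r, Jag1 and Notch1, and 0 lower, against 20.8% of assays, while at 24 or more assays 0 were higher and 1 lower, Fgfr2. Within collagen-high cells, beside the same 12.6% and 8.42% of assays, Fgfr1 was higher and Fgfr2 and Kdr were lower. Kdr was in 4 of 21 EKO and 9 of 25 WT cells. Kdr was thus lower in the same comparison as Tie2, by 16.9 points.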

How the data were processed

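The authors deposited 1 table of non-normalized Ct values for 192 cells and 96 TaqMan assays (18432 reactions, 5580 detected, Ct 4.49 to 37.9), with 40 for a reaction not detected; the unit was read from the values, and instrument, amplification and threshold settings were not given in the sources used here. Ct values were not normalized and levels were not compared between assays. Cells detecting at least 10 assays were kept. Members and lists were chosen with earlier results of these data known. In total 11 comparisons of detection shares and the Ct levels of kept and collagen-high cells were computed over all assays, and those described at length include the most extreme.

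Genes like a member were the 3 highest by phi, the correlation of detected against not detected, among assays detected in at least 5% of kept cells. Alternatives were other Ct limits, at least 24 assays, other Col1a1 limits and each set alone. In place of the Cdh5 class, one was set by at least 2 of Cdh5, Pecam1, Kdr and Flt1 (Vwf was planned too and not used here). For levels, the alternatives were the mean or the Ct minus the cell's own median. PCR signals carry no molecular identifiers, so intervals cover counting error only. Intervals were computed with SciPy 1.17.1 and tables with pandas 2.3.3 and NumPy 2.4.6, under Python 3.11.15, and the scripts were tested on simulated data. Promoters came from RefSeq (GRCm38.p6).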

Additional observations from a re-analysis of the deposited data

How the results depend on the processing

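Of 168 comparisons of 24 results with an alternative, 144 moved by less than their interval or spread and 24 by more. The sign turned in 17 comparisons of 8 detection-share differences, 0 of which met the size rule as pooled, so no called difference changed direction. For each set alone that outcome was fixed in advance, because a call required sets A and B to agree in sign. Ct limits of 35 and 30 moved the differences between shares by at most 0 and 0.286 points. The latest Ct of any member was 23.3, so neither limit could change whether a cell detected a member. All 18 comparisons at each limit are among the 144. Replacing the Cdh5 class by one set by at least 2 markers gave 26 points for Angpt1 against 6.52, within its interval but past the size rule. In that class 6 of the 8 Angpt1 cells were collagen-high. For EKO minus WT, sets A and B alone gave 13.8 and -4.44 points for Angpt2 and 17.95 and -2.22 for Tie1. Within collagen-high cells it was -12.0 for Angpt2, 0.0 for Tie1 and -33.7 for Tie2, against 11.03 for Tie2 outside them and -12.1 at 24 or more assays. At that yield the collagen-high difference was -9.81 for Angpt2 and -16.3 for Tie1, and the Ptprc difference -30.8 for Angpt1, -8.59 for Angpt2, -12.7 for Tie1 and -9.90 for Tie2. In set B alone the Cdh5 difference was 32.1 for Angpt2, 33.3 for Tie1 and 24.6 for Tie2. As Ct minus the cell's own median, the median levels were -2.29 for Angpt1, 1.54 for Angpt2, -1.46 for Tie1 and -0.90 for Tie2, a change of scale by construction. The median Ct was 9.96 for Angpt1 in set A and 10.3 for Tie1 in set B. The causes of the other moves were not tested. No paired analysis was possible because cell numbers name cells and do not pair the genotypes, and no test was made. The Tie2 and Angpt1 comparisons within collagen-high cells, with their alternatives, were chosen after seeing the data. With 1 sample per genotype, the spread between animals is unknown.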
